A study of Rattus norvegicus with 18 samples.

Results

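A set of 6 genes of the antioxidant defence were followed in rat hearts. They were taken by identifier from the 32545 genes of the deposited table: Nfe2l2 (ENSRNOG00000001548), Nqo1 (ENSRNOG00000012772), Gclc (ENSRNOG00000006302), Sod1 (ENSRNOG00000002115), Sod2 (ENSRNOG00000019048) and Cat (ENSRNOG00000008364). All 6 were found, and all 6 passed the filter on low values. The table lists identifiers without names, and the reference gene table matched 0 of them, so the symbols are those given with the identifiers when the genes were chosen and could not be checked here.

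The series asked how AICAR acts on hearts injured by doxorubicin. Male Wistar rats, an outbred strain, weighed 250 g at the start, and no age is given. The saline group received 5 weekly intravenous injections of saline, and whether it also had subcutaneous saline, as DOX+saline did, is not clear from the labels. The DOX+saline group received doxorubicin at 3 mg/kg per week, in 5 weekly injections, with subcutaneous saline. The DOX+AICAR group received the same doxorubicin, also in 5 weekly injections, with subcutaneous AICAR at 0.5 g/kg. Each group held 6 animals and each animal gave 1 library of polyadenylated heart RNA. The saline animals are numbered 51 to 56, the DOX+saline animals 1 to 6 and the DOX+AICAR animals 7 to 12, so the saline animals carry another number series. Whether they formed another cohort cannot be told apart from the doxorubicin treatment. A group given AICAR without doxorubicin was not analysed here. The heart label could not be checked against cardiac marker genes, because the identifiers carry no names. Libraries held 20.57 M to 31.32 M reads assigned to genes, and for none of the 6 genes did an animal pass Dixon's 95% limit for a far value in its group. The nearest was Gclc in DOX+saline animal 2, whose gap to the next animal was 0.592 of the group's range.

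Doxorubicin is an anthracycline whose quinone ring can pass electrons to oxygen and so form superoxide, and heart muscle, rich in mitochondria, is sensitive to it. Superoxide dismutases turn superoxide into hydrogen peroxide, which catalase then breaks down to water and oxygen. NRF2, the protein made from Nfe2l2, is a transcription factor that is held down by KEAP1 through protein breakdown. When released, it binds antioxidant response elements and switches on genes such as Nqo1 and Gclc, so that its transcript level is not a measure of its activity. AICAR enters cells and is phosphorylated to a mimic of AMP that activates the kinase AMPK.

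The promoters of the 3 genes that changed most with doxorubicin are shown because the core of the antioxidant response element can be looked for in them. The sequences are the 250 bases before the transcription start in RefSeq (build GRCr8), matched by symbol, which was possible for all 6 genes. The table gives 1 start per gene, and for Nfe2l2, Gclc and Sod1 the window lies partly or wholly inside the gene's RefSeq span, so other starts of these genes were not searched. Capitals mark the core TGACNNNGC, searched on both strands in windows that also held the 50 bases after the start.
Gclc, chr8:87510226-87510475, plus strand: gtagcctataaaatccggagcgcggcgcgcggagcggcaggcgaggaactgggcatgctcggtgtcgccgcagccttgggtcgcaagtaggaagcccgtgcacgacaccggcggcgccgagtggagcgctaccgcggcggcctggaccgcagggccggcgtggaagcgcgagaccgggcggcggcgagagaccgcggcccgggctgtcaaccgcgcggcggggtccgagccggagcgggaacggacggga
Nfe2l2, chr3:81029000-81029249, minus strand: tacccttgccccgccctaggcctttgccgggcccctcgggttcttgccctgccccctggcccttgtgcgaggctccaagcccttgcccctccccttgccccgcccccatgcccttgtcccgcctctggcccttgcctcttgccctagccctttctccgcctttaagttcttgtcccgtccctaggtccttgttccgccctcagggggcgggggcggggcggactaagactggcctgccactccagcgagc
Sod2, chr1:50050169-50050418, minus strand: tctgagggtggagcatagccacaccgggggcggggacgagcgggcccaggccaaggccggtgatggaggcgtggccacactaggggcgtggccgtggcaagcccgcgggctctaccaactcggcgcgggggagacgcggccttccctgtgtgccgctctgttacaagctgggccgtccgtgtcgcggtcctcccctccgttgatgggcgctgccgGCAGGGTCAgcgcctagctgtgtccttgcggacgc
Sod2 had 1 match, GCAGGGTCA, the core read on the opposite strand, with its first base 35 bases before the start. Nfe2l2 had 1 match, TGACGCCGC, that began at base 39 after the start and so lies outside the printed stretch. Gclc, Nqo1, Sod1 and Cat had 0 matches in their windows. The core was present in 12.2% of the 27457 promoters of this length, so 2 of 6 genes is a description of these windows and says nothing of elements farther away. The Gclc window was the richest of the 6 in G and C, at 76.7% against a median of 52.3% over all promoters, with 52 CpG sites against a median of 7.

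Levels were compared as TPM (transcripts per 1000000, reads per base of a gene rescaled to the same sum in every library), which allows genes to be ranked within a library. In saline hearts the dismutases were the most abundant of the 6. Sod2, the manganese enzyme of the mitochondrial matrix, averaged 662 ± 13 TPM, and Sod1, the copper-zinc enzyme of the cytosol, 625 ± 24.3 TPM (SD, n = 6). Cat, catalase, followed at 293 ± 6.61 TPM. Nfe2l2 stood at 59.8 ± 1.87 TPM, Nqo1, a quinone reductase, at 31.2 ± 2.66 TPM and Gclc, the catalytic subunit of the rate-limiting enzyme of glutathione synthesis, at 14.8 ± 1.33 TPM. Neighbours in this order were kept apart in all 6 saline animals, although Sod2 and Sod1 were close, with a ratio of 1.0 to 1.11. The reads behind these levels ranged from 431 to 768 per library for Gclc up to 14820 to 21243 for Sod2.

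**Figure D1:**
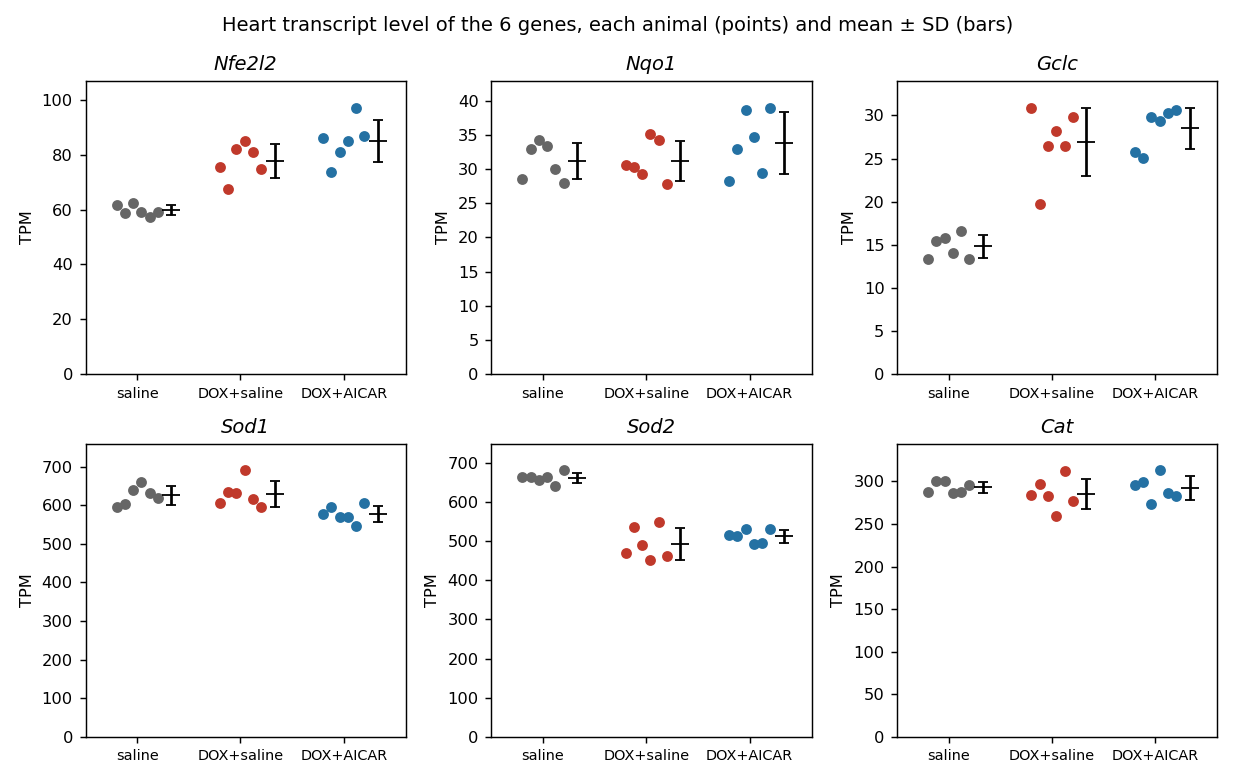
TPM of each of the 6 genes (vertical axes, from 0) in each animal of the saline, DOX+saline and DOX+AICAR groups (points), with the group mean ± SD (bars, n = 6). Nfe2l2 and Gclc lie higher and Sod2 lower in both doxorubicin groups than in any saline animal, while Nqo1, Sod1 and Cat overlap between all groups.

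What doxorubicin did was addressed by DOX+saline against saline. Gclc and Nfe2l2 rose, Sod2 fell, and Nqo1, Sod1 and Cat did not pass the test. Thus 3 of the 6 genes were called at an adjusted p below 0.05 (limma), 2 higher and 1 lower. Over all 14732 genes tested the share called was 58.0%, with 38.0% higher and 20.0% lower, so the count among the 6 is near this background. The same 3 genes were those whose groups did not overlap, which over all genes held for 32.2%, 21.1% higher and 11.2% lower. The median log2 change of the 6 genes was 0.003, against 0.10 over all genes tested.

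Gclc had the largest change of the 6. Saline animals ranged from 13.4 to 16.6 TPM with a median of 14.8, and DOX+saline animals from 19.7 to 30.9 TPM with a median of 27.3. Every DOX+saline animal lay above every saline animal. The log2 change was 0.81 (SE 0.09, limma adjusted p = 9.04e-07), or 1.76-fold, and 90.3% of all genes tested had a lower change. Animal 2 was the lowest of the DOX+saline group at 19.7 TPM, while the others lay at 26.4 TPM or more. Without it the log2 change was 0.90 (limma adjusted p = 2.71e-08).

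Nfe2l2 rose less than Gclc. It ranged from 57.4 to 62.3 TPM in saline, with a median of 59.1, and from 67.6 to 85.1 TPM in DOX+saline, with a median of 78.2. The groups did not overlap, and animal 2 was again the lowest with doxorubicin. The log2 change was 0.37 (SE 0.06, limma adjusted p = 4.51e-05), or 1.29-fold, and the mean was 30.1% higher. The ratio of Nfe2l2 to Gclc within a library fell by 0.48 on the log2 scale (exact permutation p = 0.00216, two-sided, n = 6 and 6, the smallest this design can give, adjusted p = 0.00423 over 45 ratio tests).

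Nqo1 overlapped fully between these groups. It ranged from 28 to 34.3 TPM in saline (median 31.5) and from 27.8 to 35.2 TPM in DOX+saline (median 30.5). The log2 change was 0.001 with a 95% interval from -0.17 to 0.17 (limma adjusted p = 0.996). On the values as deposited, this leaves out a change as large as that of Nfe2l2 or Gclc. Against Gclc, which is also a known NRF2 target, Nqo1 fell within the library: the log2 ratio went from 1.08 ± 0.12 in saline to 0.22 ± 0.27 (SD, n = 6) with doxorubicin, past the threshold (exact permutation p = 0.00216, adjusted p = 0.00423). Nqo1 exceeded Gclc in 6 of 6 saline animals and in 4 of 6 DOX+saline animals.

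Sod2 was the only one of the 6 called lower here. Saline animals ranged from 641 to 681 TPM (median 663) and DOX+saline animals from 451 to 549 TPM (median 480). All DOX+saline animals lay below all saline animals, and animals 5 and 2, at 549 and 535 TPM, were nearest to them. The log2 change was -0.43 (SE 0.04, limma adjusted p = 3.92e-07), and the mean fell by 25.4%. In a piece of heart, fewer cells that carry a transcript and less of it per cell cannot be told apart, which applies to all values here.

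Sod1 and Cat overlapped between saline and DOX+saline on the values as deposited. Sod1 ranged from 595 to 661 TPM in saline and from 594 to 690 TPM in DOX+saline, with medians of 625 and 623. Its log2 change was 0.006 (95% interval -0.07 to 0.09, limma adjusted p = 0.899). Cat ranged from 287 to 301 TPM in saline and from 259 to 312 TPM in DOX+saline, with medians of 292 and 283, and 4 of 6 DOX+saline animals lay below all saline animals. Its log2 change was -0.04 (95% interval -0.13 to 0.04, limma adjusted p = 0.395).

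The order of the dismutases in TPM turned with doxorubicin. This order depends on the gene lengths behind TPM, 656 bases for Sod1 and 2063 for Sod2, while the change of their ratio does not. Sod2 exceeded Sod1 in 6 of 6 saline hearts and in 0 of 6 DOX+saline hearts, where the ratio of Sod2 to Sod1 ranged from 0.654 to 0.894 with a median of 0.78. The log2 ratio of Sod1 to Sod2 rose by 0.43 (exact permutation p = 0.00216, adjusted p = 0.00423). Sod2 also fell relative to Cat, by 0.39 on the log2 scale (exact permutation p = 0.00216, adjusted p = 0.00423). A ratio within a library does not depend on how that library is scaled, and it shows unequal change, not which of the genes moved. Of the 15 ratios between the 6 genes, 12 differed past the threshold in this comparison. The others were those among Nqo1, Sod1 and Cat, with log2 differences of -0.006 for Nqo1 to Sod1, 0.04 for Nqo1 to Cat and 0.05 for Sod1 to Cat. All 12 thus include Gclc, Nfe2l2 or Sod2, already called above, so the count is no separate result. The share among pairs of other genes was not computed, and 58.0% of all genes tested were called in this comparison.

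**Figure D2:**
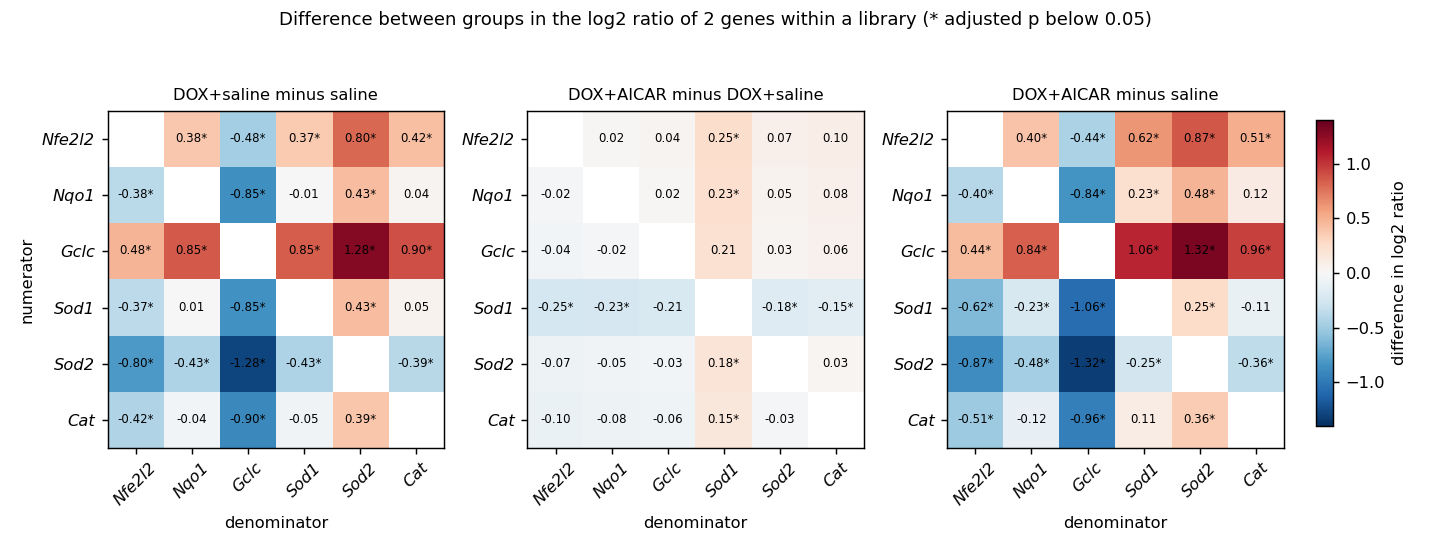
Difference between groups in the log2 ratio of a row gene to a column gene within a library, for the 3 comparisons (panels, colour scale in log2 units, asterisks at an exact permutation p adjusted over 45 tests below 0.05). In DOX+saline against saline the widest gap is that of Gclc to Sod2, 1.28, and in DOX+AICAR against DOX+saline the 4 marked pairs all include Sod1.

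Another scaling of the libraries changed the direction or the call of Cat, Sod1 and Nqo1. With median-of-ratios factors, which are lower in saline (0.937 to 0.993) than in DOX+saline (0.99 to 1.05), Cat was called lower (log2 change -0.14, limma adjusted p = 0.0107), as it was with TMM factors (-0.15, adjusted p = 0.0073) and with voom on recovered reads (-0.15, adjusted p = 0.00888). Sod1 and Nqo1 turned to log2 changes of -0.09 and -0.10 with median-of-ratios factors and passed the test under none of these. Gclc, Nfe2l2 and Sod2 kept direction and call under all 5 scalings. Quantile normalization moved the median of all genes by -0.16, and it moved the share of called genes that were higher from 65.5% to 41.0%, with 51.3% for median-of-ratios factors. Relative to the median of all genes, the log2 changes over the 5 scalings were 0.70 to 0.74 for Gclc, 0.26 to 0.38 for Nfe2l2 and -0.54 to -0.38 for Sod2. They were -0.12 to -0.03 for Nqo1, -0.11 to 0.07 for Sod1 and -0.16 to 0.001 for Cat.

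**Figure D3:**
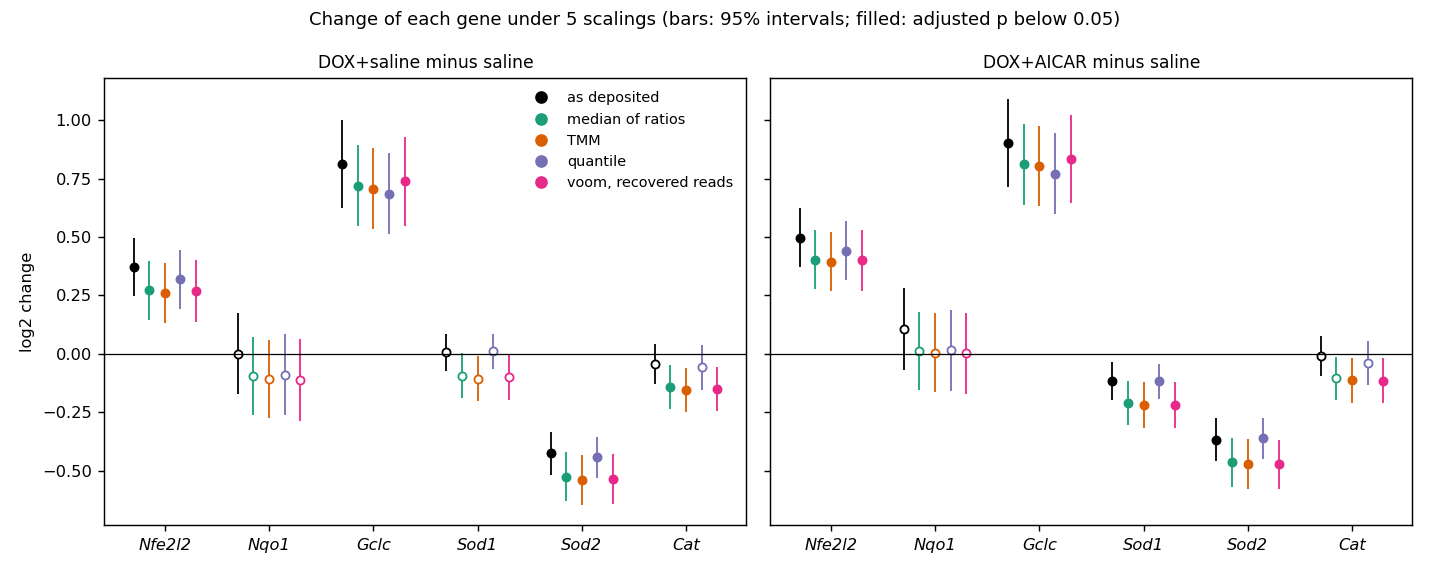
Log2 change of each gene (points, with 95% intervals) in DOX+saline against saline and in DOX+AICAR against saline, on the values as deposited and under 4 other scalings (colours); filled points have an adjusted p below 0.05. Gclc, Nfe2l2 and Sod2 are filled under each scaling in both panels, while Cat is filled under 3 of 5 in the left panel and 2 of 5 in the right.

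The comparison of DOX+AICAR with DOX+saline asked what AICAR added. None of the 6 genes was called (0 of 6, limma), where 1.33% of all genes tested were, 0.577% higher and 0.753% lower. Groups overlapped for each of the 6, so 0 of 6 were apart, where 1.51% of all genes were, 0.658% higher and 0.848% lower. Without adjustment, Nfe2l2 and Sod1 (2 of 6) were below 0.05, as were 17.6% of all genes tested. With voom on recovered reads the count called was also 0 of 6. It shares the DOX+saline libraries with DOX+saline against saline and the DOX+AICAR libraries with DOX+AICAR against saline.

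Sod1 was the gene nearest to a change. DOX+AICAR animals ranged from 546 to 605 TPM (median 574) and DOX+saline animals from 594 to 690 TPM (median 623), and 4 of 6 DOX+AICAR animals lay below all DOX+saline animals. The log2 change was -0.12 (SE 0.04, limma adjusted p = 0.113, and 0.0642 to 0.216 over the alternatives). Within libraries, Sod1 was lower relative to 4 of the other 5 genes past the threshold set over all 45 ratio tests. The log2 ratio of Nfe2l2 to Sod1 was higher by 0.25 (exact permutation p = 0.0108, adjusted p = 0.0195) and that of Sod1 to Sod2 lower by 0.18 (exact permutation p = 0.0152, adjusted p = 0.0262). The ratio of Nqo1 to Sod1 was higher by 0.23 (exact permutation p = 0.0238, adjusted p = 0.0383) and that of Sod1 to Cat lower, with a difference of -0.15 (exact permutation p = 0.0281, adjusted p = 0.0437). These ratios share the Sod1 values and are not independent, and the share of such calls among pairs of other genes was not computed. Their p-values were adjusted together with the ratios against saline, most of which passed, and this lowers the adjusted values here. These calls depend on the pooling: with the same adjustment over the 15 ratios of this comparison alone, all 4 would be lost. The Nqo1 call was lost without any one of DOX+saline animals 1, 2, 3, 4 and 6 or DOX+AICAR animals 9, 10 and 12 (adjusted p = 0.0591 to 0.0773, exact permutation). The Cat call was lost without DOX+saline animal 1, 2, 3, 4 or 6 or DOX+AICAR animal 7, 8, 10 or 11 (adjusted p = 0.0617 to 0.101, exact permutation). Under the pooled adjustment, the calls with Nfe2l2 and Sod2 were kept without any 1 animal. Sod1 relative to Gclc, with a log2 ratio of Gclc to Sod1 higher by 0.21, did not pass (exact permutation p = 0.0823, adjusted p = 0.119).

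Nfe2l2 had its highest levels with AICAR, from 73.7 to 97.2 TPM with a median of 85.7, and 3 of 6 of these animals lay above all DOX+saline animals. The log2 change was 0.13 (SE 0.06, limma adjusted p = 0.272). Nqo1 ranged from 28.3 to 39.0 TPM (median 33.8), a log2 change of 0.11 with a 95% interval from -0.07 to 0.28 (limma adjusted p = 0.534). Gclc ranged from 25.1 to 30.6 TPM (median 29.6) and overlapped fully with DOX+saline (log2 change 0.09, 95% interval -0.10 to 0.28, limma adjusted p = 0.649). With limma array weights, which gave DOX+saline animal 2 the lowest weight of all libraries, the Gclc change was -0.008, and without that animal it was 0.006.

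Sod2 and Cat did not pass the test between the doxorubicin groups. Sod2 ranged from 493 to 531 TPM with AICAR (median 514), inside the DOX+saline range, with a log2 change of 0.06 (95% interval -0.03 to 0.15, limma adjusted p = 0.508). Cat ranged from 273 to 313 TPM (median 291), with a log2 change of 0.03 (95% interval -0.05 to 0.12, limma adjusted p = 0.721). The intervals of both leave out a rise with AICAR as large as the fall of Sod2 with doxorubicin.

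**Figure D4:**
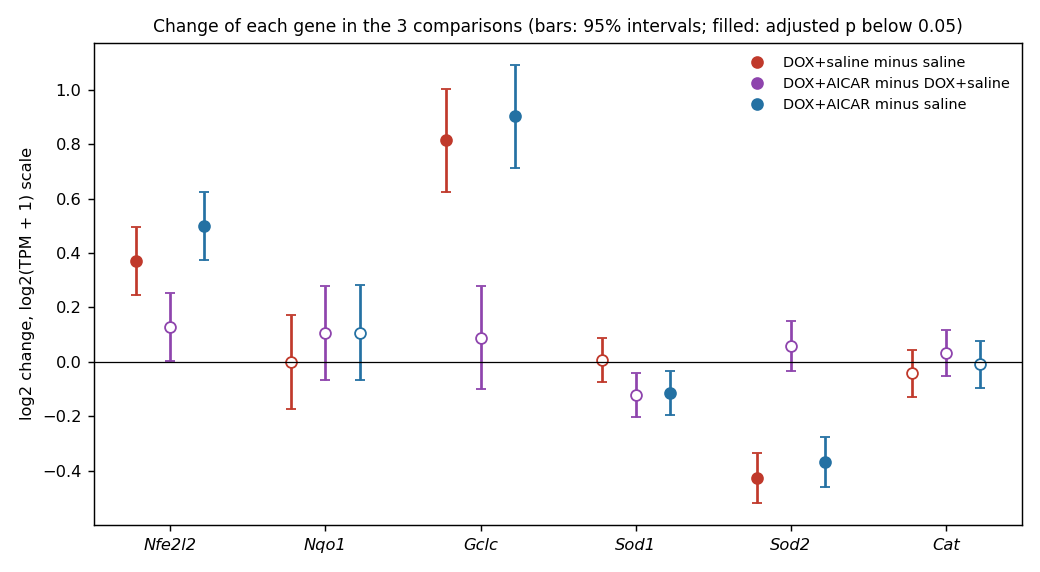
Log2 change of each gene (points, with 95% intervals, on the log2(TPM + 1) scale) in the 3 comparisons (colours); filled points have a limma adjusted p below 0.05. Filled points are seen for Nfe2l2, Gclc and Sod2 in both comparisons with saline and for Sod1 in DOX+AICAR against saline, and none in DOX+AICAR against DOX+saline.

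DOX+AICAR against saline showed what separated hearts given both drugs from saline hearts. Of the 6 genes, 4 were called, 2 higher and 2 lower (limma), against 53.3% of all genes tested, 34.8% higher and 18.4% lower. Groups did not overlap for 3 of the 6, against 34.5% of all genes, 22.9% higher and 11.6% lower. Gclc rose by 0.90 on the log2 scale (SE 0.09, limma adjusted p = 4.09e-07), or 1.87-fold. Nfe2l2 changed by 0.50 (SE 0.06, limma adjusted p = 2.66e-06), or 1.41-fold, with the lowest DOX+AICAR animal at 73.7 TPM and the highest saline animal at 62.3 TPM. Sod2 fell by 0.37 (SE 0.04, limma adjusted p = 2.68e-06), and the highest DOX+AICAR animal, at 531 TPM, lay below the lowest saline animal, at 641 TPM.

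Sod1 was called lower in this comparison. Its mean was 577 ± 21.4 TPM in DOX+AICAR and 625 ± 24.3 TPM in saline (SD, n = 6). This gave a log2 difference of -0.11 (SE 0.04, limma adjusted p = 0.0181, and 0.000684 to 0.0479 over the alternatives). The size of the Sod1 change depended on the scaling, with -0.21 for median-of-ratios factors, -0.22 for TMM factors and -0.22 for voom. The groups overlapped, with 4 of 6 DOX+AICAR animals below all saline animals. The change of Sod1 between DOX+saline and saline did not pass the test, and the direct test of the doxorubicin groups, with an adjusted p of 0.113 (limma), did not either. Sod2 stayed below Sod1 in all 6 DOX+AICAR animals, at a ratio of 0.858 to 0.933. Nqo1 (log2 change 0.11, limma adjusted p = 0.293) and Cat (-0.009, limma adjusted p = 0.869) did not pass. The Nqo1 change was 0.013 with median-of-ratios factors, 0.005 with TMM factors, 0.016 with quantile normalization and 0.002 with voom. Cat was called lower with TMM factors (-0.11, adjusted p = 0.0419) and voom (-0.11, adjusted p = 0.0412).

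Single DOX+saline animals differed in more than 1 of these genes. Animal 2 had the lowest Nfe2l2 and Gclc of its group and, at 535 TPM, a Sod2 level nearer to saline than 4 of the others. Animal 4 had the highest Nfe2l2 (85.1 TPM), Nqo1 (35.2 TPM) and Sod1 (690 TPM) and the lowest Sod2 (451 TPM) and Cat (259 TPM). In the plot of Gclc against Sod2, the saline hearts lie together at high Sod2 and low Gclc, and animal 2 is the doxorubicin heart with the lowest Gclc.

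**Figure D5:**
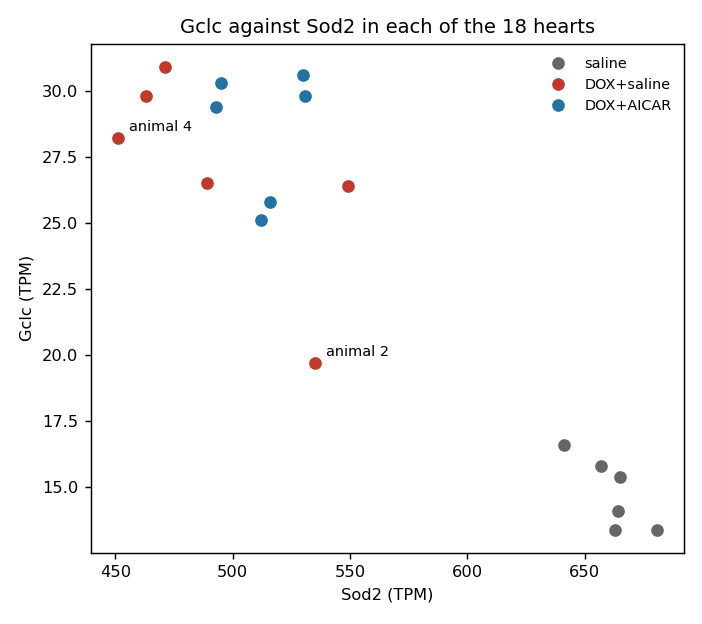
Gclc (vertical axis, TPM) against Sod2 (horizontal axis, TPM) in each of the 18 hearts, by group (colours), with DOX+saline animals 2 and 4 named; the axes do not start at 0. Saline hearts have 13.4 to 16.6 TPM of Gclc with at least 641 TPM of Sod2, and all 12 hearts given doxorubicin have at least 19.7 TPM of Gclc with at most 549 TPM of Sod2.

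Whether Nfe2l2 tracked the other genes from animal to animal was asked within each group, since the saline hearts lie apart from the others in Nfe2l2, Gclc and Sod2. Of 15 correlations (5 genes in 3 groups of 6 animals), 0 passed the threshold after adjustment, and both signs occurred. On the values as deposited, the largest in size was Nfe2l2 with Sod1 in DOX+AICAR, r = -0.624 (exact permutation p = 0.156, adjusted p = 0.759). Its rho was -0.257 (exact permutation p = 0.658, adjusted p = 0.86), and r was 0.631 without the 2 animals farthest from the median of Nfe2l2. With median-of-ratios factors this r was -0.153, and the largest was Nfe2l2 with Gclc in saline, r = -0.726 (exact permutation, adjusted p = 0.661). The count past the threshold was 0 with these factors too. All other r and rho here are on the values as deposited. Nfe2l2 with Gclc had Pearson r = 0.567 in DOX+saline (exact permutation p = 0.235, adjusted p = 0.759) and Spearman rho = 0.143 (exact permutation p = 0.803, adjusted p = 0.86). Without the 2 animals farthest from the median of Nfe2l2 the r was -0.959, so that value rests on them. In DOX+AICAR it was r = 0.617 (exact permutation p = 0.222, adjusted p = 0.759) with rho = 0.714 (exact permutation p = 0.136, adjusted p = 0.86), and r = -0.264 without 2 animals. In saline Nfe2l2 with Gclc was r = -0.309 (exact permutation p = 0.486, adjusted p = 0.759) with rho = -0.371 (exact permutation p = 0.497, adjusted p = 0.86), and r = -0.861 without 2 animals. Nfe2l2 with Nqo1 had r = 0.523 in DOX+saline (exact permutation p = 0.292, adjusted p = 0.759) with rho = 0.543 (exact permutation p = 0.297, adjusted p = 0.86), and r = 0.464 without 2 animals. In DOX+AICAR that pair was r = -0.339 (exact permutation p = 0.522, adjusted p = 0.759) with rho = -0.143 (exact permutation p = 0.803, adjusted p = 0.86), and r = -0.387 without 2 animals.

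Over all 18 libraries, the gene whose log2(TPM + 1) values were most like those of Nfe2l2 was ENSRNOG00000011313, with Pearson r = 0.948. It averaged 0.443 ± 0.103 TPM (SD, n = 6) in saline, and higher in DOX+saline, at 1.75 ± 0.271 TPM, as well as DOX+AICAR, at 2.03 ± 0.235 TPM. The one most like Nqo1 was ENSRNOG00000057352, at r = 0.79, with means of 10.5, 11.3 and 11.5 TPM in the same order. Each had the highest correlation among the genes tested, over libraries that share group and depth, and is given as a description. The saline mean of ENSRNOG00000011313 lay below the 1 TPM of the filter, so this gene was kept through the doxorubicin groups. Its r is pooled over saline and doxorubicin hearts, which lie apart in Nfe2l2, and so holds the difference between groups. In all, 41 genes had an r above 0.9 with Nfe2l2.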

How the data were processed

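RNA of 18 rat hearts was sequenced by the authors. Per the submitters' processing notes, bcl2fastq 2.17.1.14, HISAT2, featureCounts and Subread 1.5.0 were used with the build Rnor_6.0. Neither the annotation release nor the strand setting of the counting was given in the sources used here, so whether overlapping genes or near-identical copies were kept apart is unknown. The deposited values are TPM, made by the authors, and sum to 1000000 per library. A rise of some genes therefore lowers the share of others.

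Whole reads were recovered from the steps between TPM values: all 25878 genes above 0 were solved within 0.001 reads, among them the 20828 genes present in at least 6 libraries, and gene lengths came out whole within 0.05 bases in 100% of these. Totals were 20.57 M to 31.32 M reads; the reads have no molecular identifiers.

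limma 3.58.1 (R 4.3.3) was fitted with a mean-variance trend to log2(TPM + 1) of all 18 libraries and all genes of at least 1 TPM in at least 6 libraries (14732 genes). P-values were two-sided and Benjamini-Hochberg adjusted over all genes kept. Log2 changes on this scale understate those of low genes. Log2 ratios within a library (no pseudocount) were compared by two-sided exact permutation over 924 assignments, adjusted over 45 tests. Correlations used all 720 pairings, adjusted over 15. The recovery of reads and the main limma fit were tested on simulated data, and the permutation tests and correlations were not.

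The 6 genes, lists and tests were chosen with earlier results of these data known. The genes named are the 6 and, as identifiers carry no symbols, the identifier most similar to Nfe2l2 and that most similar to Nqo1. For the same reason 4 pathway lists and 8 cell type lists were not analysed here. Promoters are from RefSeq, build GRCr8. Alternatives were 2 pseudocounts, 2 filters, 3 scalings, 12 libraries only, array weights, voom on recovered reads and each animal left out. TMM factors were unweighted.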

Additional observations from a re-analysis of the deposited data

How the results depend on the processing

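All 28 alternatives kept direction and call of Gclc, Nfe2l2 and Sod2 in both comparisons with saline and of Sod1 in DOX+AICAR against saline, and none called any of the 6 genes between the doxorubicin groups (0 of 6 in each). The numbers called ran from 3 to 4 in DOX+saline and from 4 to 5 in DOX+AICAR, each against saline. For DOX+saline against saline, the Nqo1 log2 change turned to -0.096 with median-of-ratios factors, -0.108 with TMM factors, -0.089 with quantile normalization, -0.056 with array weights and -0.112 with voom, and ran from -0.034 to 0.032 when each animal was left out. That of Sod1 turned to -0.093 with median-of-ratios factors, -0.106 with TMM factors, -0.033 with array weights and -0.101 with voom, and ran from -0.021 to 0.023 when each animal was left out. Cat passed the test with median-of-ratios factors (-0.142), TMM factors (-0.154) and voom (-0.15). For DOX+AICAR against saline, Cat passed with TMM factors (-0.113) and voom (-0.114), and ran from -0.03 to 0.01 with each animal left out. Gclc between the doxorubicin groups turned to -0.008 with array weights, in which DOX+saline animal 2 weighs least, and was 0.006 without that animal. The number of all tested genes called between the doxorubicin groups was 196, and 321 with quantile normalization, 16 with only the 12 libraries compared, 1058 with array weights and 36 to 461 with each animal left out. The 4 ratio calls between these groups were 2 to 4 with each animal left out, with 2 without DOX+saline animal 1, 2, 3, 4 or 6 or DOX+AICAR animal 10; the smallest p rises with 5 animals in a group. A planned edgeR test on recovered reads was not run; voom was run on the same reads. No paired analysis was possible because the groups share no animal numbers. The fewest reads behind a value were 431, for Gclc in saline; the share of counting error in the spread was not tested.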

Other observations

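The spread between animals was not compared in the report. By the coefficient of variation of TPM over 6 animals, each of the 6 genes varied more in DOX+saline than in saline. Medians over the genes were 8.14% and 3.5%. This difference was not tested, and the share of all genes that varied more was not computed. The limma array weights, which are lower for libraries of wider spread over all genes, ran from 0.314 to 1.84 in DOX+saline. In saline they ran from 0.823 to 2.08, so the wider spread cannot be called particular to these genes. Sod2 went from 1.96% in saline to 8.17% in DOX+saline and 3.2% in DOX+AICAR, and Gclc from 9.02% to 14.7% and 8.4%. Nqo1 was most variable in DOX+AICAR, at 13.3%. The pooled SD within groups of Sod1 was 0.0626 on the log2 scale, against a median of 0.0911 over 228 genes of like level. That of Gclc was 0.162, against 0.124 over 2616 genes. Of the genes of like level, 17.1% had a lower SD than Sod1 and 69.2% a lower one than Gclc. This share was 21.2% for Cat, 26.7% for Sod2, 51.3% for Nfe2l2 and 68.4% for Nqo1, so neither value is particular to Sod1 or Gclc.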
